A study of Mus musculus with 4 samples.

Results

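The comparison described here is that of the hearts of sham-operated mice at 8 weeks with those at 2 weeks after the operation, that is, of the unloaded heart at both times of a screen for pressure overload. Total RNA from the hearts of male C57BL/6J mice was hybridized to 1-colour Agilent arrays, with 1 array for each condition and RNA pooled from several mice on each array. By their labels, the mice were 10 weeks old at 2 weeks and 16 weeks old at 8 weeks, and the study's methods give an age at surgery that these label ages do not allow. Time after surgery, age and the day of sampling therefore changed together and cannot be told apart. The members of the comparison are 2 of the 4 samples in the series. The other 2 are the arrays of hearts under transverse aortic constriction (TAC) at the same times, from mice of the same sex and label ages, which are read beside the sham arrays and share no array with them.

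Of the 55681 probes other than controls, 29689 (53.3%) passed the scanner's test for a signal well above background on each of the sham arrays and were taken as measured. They comprise 19056 probes with a gene symbol, for 14413 genes, and 5911 probes named by a range on a chromosome, which are the long intergenic noncoding RNA (lincRNA) probes of the design. A further 2739 probes were well above background on only 1 of the sham arrays, 23241 on neither, and 12 had no usable spot. Every level below is the log2 of a probe's signal minus the 75th percentile of its array, so that 0 stands for the percentile itself, and every difference is the level at 8 weeks minus that at 2 weeks. A probe was called when it was over 2-fold higher or lower at 8 weeks. With 1 pool for each time there is no spread between mice, no test was possible, and each fold is the ratio of 2 pools. In RNA of a whole organ, fewer cells of a type and less RNA in each cell cannot be told apart.

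The adult heart burns mainly fatty acids, and it shifts between fatty acids, glucose and ketone bodies with feeding, hormones and time of day. The shift is set in part by nuclear receptors of the PPAR family, which bind fatty acids and switch on genes such as Pdk4, and in part by the clock, a loop in which BMAL1 (encoded by Arntl) and CLOCK switch on their own repressors through E-box sequences. Heat shock proteins and immediate early genes respond within a short time to stress, handling or stretch, and the matrix between the cells is made by fibroblasts. A comparison of sham pools also shows how far pools and arrays differ without pressure overload.

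The labelled tissue was checked by genes of the ventricle, which were among the bright probes, with Myl3 (a ventricular myosin light chain) at 11.19 and 11.06 and Myh6 (the main adult myosin heavy chain) at 10.86 and 10.74 at 2 and 8 weeks. Alb (albumin of the liver) and Sftpc (a surfactant protein of the lung) were not well above background on either sham array. Other genes taken as markers of liver and lung were measured on both, such as Apoa2 at 3.86 and 3.87 and Lamp3 at 3.07 and 3.24. Whether the pools held other tissue was not tested. The pools were close to each other over all probes. The SD of the log2 differences was 0.28, compared with 0.33 between the TAC pools over the same probes, the median was 0.00, and 96.5% of the measured probes lay within 1.5-fold. The 75th percentile of the raw signal was 206 at 2 weeks and 221 at 8 weeks, between 54.7% and 56.9% of the probes were well above background on the sham arrays, and no spot was saturated.

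To show the sequence context in which the clock and heat shock genes are controlled, the 250 bases before the start of 3 genes are printed from RefSeq (GRCm38.p6), read 5′ to 3′ along the gene, with the searched motif in capitals. Ciart (a repressor of the clock) is shown for the E-box CACGTG, Per3 (a period gene) for the D-box TTANGTAA bound by the clock's output factors, and Hspa1a (the inducible HSP70) for the short heat shock element GAANNTTC. Both strands were searched. The stretches are chr3:95882229-95882478 on the minus strand for Ciart, chr4:151044666-151044915 on the minus strand for Per3 and chr17:34972157-34972406 on the minus strand for Hspa1a.
Ciart: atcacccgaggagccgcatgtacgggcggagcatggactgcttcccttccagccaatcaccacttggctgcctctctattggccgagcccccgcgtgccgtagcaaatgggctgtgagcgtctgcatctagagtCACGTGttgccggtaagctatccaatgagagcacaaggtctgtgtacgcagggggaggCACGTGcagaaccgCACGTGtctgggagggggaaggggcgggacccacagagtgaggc
Per3: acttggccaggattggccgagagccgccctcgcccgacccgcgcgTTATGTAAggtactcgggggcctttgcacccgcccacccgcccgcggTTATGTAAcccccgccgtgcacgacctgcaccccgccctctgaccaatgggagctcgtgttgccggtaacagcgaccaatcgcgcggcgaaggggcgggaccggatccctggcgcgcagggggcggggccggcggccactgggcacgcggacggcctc
Hspa1a: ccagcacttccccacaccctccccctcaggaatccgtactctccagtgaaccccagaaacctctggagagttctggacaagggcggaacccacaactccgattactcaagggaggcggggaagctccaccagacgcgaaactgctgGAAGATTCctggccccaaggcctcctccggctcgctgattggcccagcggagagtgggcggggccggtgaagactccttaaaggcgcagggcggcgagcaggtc
The E-box was found 3 times before Ciart, the D-box was found 2 times before Per3 and the heat shock element was found 1 time before Hspa1a. In all 32851 promoter windows of this length, from 27025 genes, the E-box was present in 6.02%, the D-box in 2.06% and the heat shock element in 6.69%. Among the clock repressors and outputs with a window, 5 of 12 genes had an E-box and 1 of 12 had a D-box. None of the 5 genes on the list of clock activators, which also holds the repressor Nfil3, had an E-box. Among the heat shock genes, 7 of 15 had the heat shock element, and the windows of Hspd1 and Hspe1, both among the 7, overlap. These counts take a gene with the motif in any of its windows. The shares above are of single windows, and the measures are therefore not alike. A match of letters in a window is a description and not evidence of a bound site.

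A few genes on the list of fasting and PPAR targets, led by Pdk4, stood lower at 8 weeks in both operations. Pdk4 encodes the kinase that shuts off pyruvate dehydrogenase, and its level was 6.74 in sham at 2 weeks, 5.07 in sham at 8 weeks, 6.83 in TAC at 2 weeks and 5.19 in TAC at 8 weeks. Both 2-week arrays were thus high and both 8-week arrays low, 3.19-fold in sham and 3.11-fold in TAC. Ucp3, an uncoupling protein of muscle mitochondria that rises on fasting, has 2 probes. The brighter one read 1.70 and 0.94 in sham and 1.60 and 0.89 in TAC at 2 and 8 weeks, and the other read 1.22 and −0.26 in sham and 0.78 and −1.01 in TAC. The differences were −0.75 and −1.47 in sham and −0.71 and −1.79 in TAC, and for both probes the levels at 2 and 8 weeks did not overlap across operations.

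Angptl4, a secreted inhibitor of lipoprotein lipase, read 3.93 and 3.10 in sham and 4.53 and 2.23 in TAC. Its sham pool at 8 weeks was 1.78-fold lower and its TAC pool 4.91-fold lower, and Acot1, a fatty acyl-CoA thioesterase, was 1.32-fold lower in sham and 3.46-fold lower in TAC. Pdk4, Ucp3 and Angptl4 were among the 4 members past 1.5-fold lower in the list of fasting and PPAR targets, none of whose 17 measured members was past 1.5-fold higher. Over all 14408 genes with 1 probe each, 1.61% were past 1.5-fold higher and 1.21% past 1.5-fold lower, with a median difference of 0.02. The list median was −0.07 in sham (0.03 without normalization between arrays) and −0.37 in TAC, and 12 of the 17 genes were below 0 in sham. Of these, Plin2, Acot2, Plin5 and Fabp3 lay between −0.07 and −0.02, within the shift of 0.10 that leaving out normalization gave. The share of all genes below 0 is not given here. Counts of signs, in this and other lists, thus have no background but the median over all genes.

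No gene on the lists of the machinery itself was past 1.5-fold, for fatty acid oxidation (20 measured, median 0.00), for the respiratory chain (30 measured, median −0.05) or for glycolysis and glucose uptake (21 measured, median 0.04). Ppargc1a, the coactivator that drives mitochondrial genes, was lower in sham on both of its probes, by 0.78 and 0.59 on the log2 scale, and stood 0.37 and 0.16 lower in TAC. Bdh1, the mitochondrial enzyme that starts the use of ketone bodies, went the other way. Its 3 probes were 0.84, 0.86 and 0.93 higher at 8 weeks in sham and 1.23, 1.27 and 1.32 higher in TAC, from levels of 4.08 and 4.92 in sham and 4.88 and 6.11 in TAC for the brightest one. It was the only gene past 1.5-fold of the 15 in the list of ketone body and amino acid breakdown. In that list 14 genes were above 0 and the median was 0.12, compared with 0.02 over all genes.

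**Figure D1:**
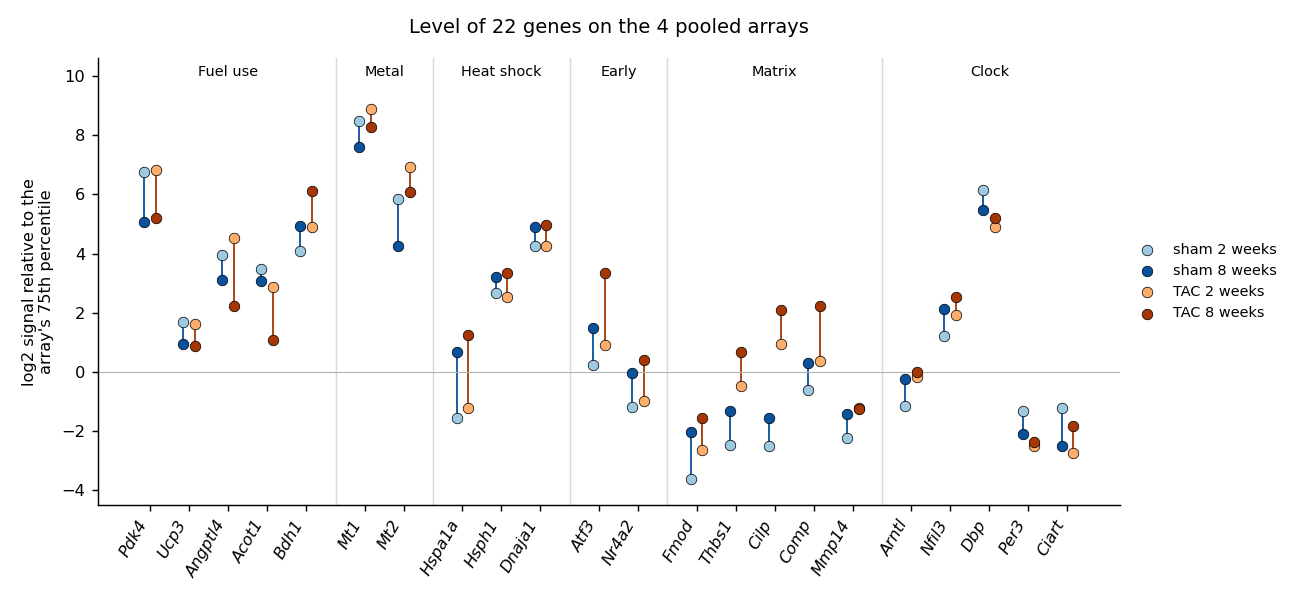
Level of 22 genes (log2 signal relative to the array's 75th percentile, y axis) on the sham arrays (blue, left of each pair) and the TAC arrays (orange, right of each pair) at 2 weeks (light) and 8 weeks (dark), with a line joining both times of an operation and 1 probe for each gene, the brightest. Pdk4, Ucp3 and Angptl4 stand lower at 8 weeks in both operations, whereas the sham and TAC lines of Dbp, Per3 and Ciart run in opposite directions.

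Metallothioneins, small proteins that bind zinc and copper and that respond to glucocorticoids, were lower at 8 weeks as well. Mt2 read 5.83 and 4.25 in sham, 2.99-fold lower at 8 weeks, and 6.94 and 6.06 in TAC, 1.83-fold lower, so that the sham pool at 8 weeks lay below the other 3 arrays. Mt1 read 8.50 and 7.62 in sham and 8.90 and 8.28 in TAC. These 2 genes were the only ones past 1.5-fold in the list of glucocorticoid responses (14 measured, median −0.11). Fkbp5 and Tsc22d3, both induced by glucocorticoids, differed by −0.11 and −0.15 in sham and by 0.41 and 0.24 in TAC. Zbtb16, another induced gene, differed by −0.54 in sham and 0.12 in TAC.

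The clock genes differed in sham in a pattern that the TAC pools did not show, though the difference between the operations could not be tested. Of the 14 measured repressors and outputs of the clock, 13 were below 0 in sham, with a median difference of −0.26, compared with 0.10 in TAC. Over all genes the median was 0.02 in sham and 0.03 in TAC. Ciart read −1.22 and −2.52 in sham, 2.47-fold lower at 8 weeks, and −2.76 and −1.84 in TAC. Dbp, a D-box activator at the output of the clock, read 6.16 and 5.49 in sham and 4.90 and 5.21 in TAC on its brighter probe, with differences of −0.67 and −0.65 on its 2 sham probes. Per3 read −1.33 and −2.11 in sham and −2.51 and −2.37 in TAC. For Ciart, Dbp and Per3 the sham pool at 2 weeks was the highest of the 4 arrays.

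The other repressors and outputs differed by less than 1.5-fold in sham, among them Tef (−0.41), Nr1d2 (−0.31), Per1 (−0.27), Usp2 (−0.26), Nr1d1 (−0.21), Cry2 (−0.17) and Per2 (−0.15). Bhlhe40 (0.22) was the one member above 0. On the list of clock activators, which also holds the repressor Nfil3, 4 of 5 measured genes were above 0 with a median of 0.19. The count and the median thus do not stand for activators alone. Arntl read −1.17 in sham at 2 weeks, −0.24 in sham at 8 weeks, and −0.17 and −0.00 in TAC, so that the sham pool at 2 weeks stood alone at the low end. Nfil3, a repressor that acts on the same D-box as DBP, read 1.22 and 2.13 in sham and 1.92 and 2.52 in TAC. Clock itself differed by 0.09 and Rora by −0.20. The hour at which the hearts were taken is not given in the sources used here, and its part in these differences was not tested.

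**Figure D2:**
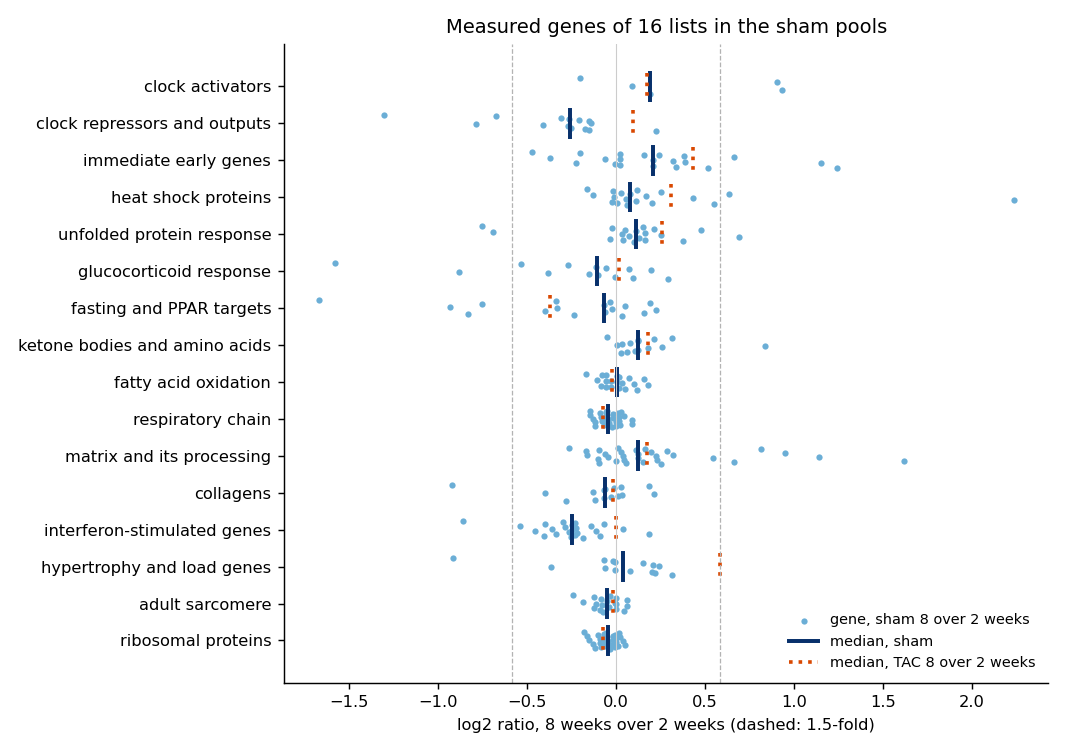
Difference between sham at 8 and at 2 weeks (log2, x axis) for the measured genes of 16 lists (points), with the list median in sham (blue bar) and in TAC (orange dotted bar), and dashed lines at 1.5-fold. The repressors and outputs of the clock and the interferon-stimulated genes lie mostly below 0 in sham, and the genes of the respiratory chain, the sarcomere and the ribosome lie close to 0.

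Heat shock and immediate early genes were higher at 8 weeks in both operations for a few members. The probe for Hspa1a read −1.56 and 0.68 in sham, 4.71-fold higher at 8 weeks, and −1.21 and 1.23 in TAC, 5.43-fold higher. Its near-identical copy Hspa1b has no probe under that name, and which copy gave the signal cannot be told. Hsph1, a cofactor of HSP70, was 0.55 and 0.74 higher on its 2 probes in sham and 0.83 and 0.90 higher in TAC. Dnaja1, another cofactor of HSP70, read 4.27 and 4.90 in sham and 4.24 and 4.96 in TAC on its brighter probe. Its other, dimmer probe was 0.44 higher in sham and differed by −0.17 in TAC.

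Hspa1a and Dnaja1 were the only members past 1.5-fold among 19 measured heat shock genes, for which the median was 0.08 in sham and 0.31 in TAC. Hspa8, the constitutive HSP70, differed by 0.03 in sham on its brightest probe. Atf3, an immediate early transcription factor of the stress response, read 0.22 and 1.47 in sham and 0.90 and 3.34 in TAC. Nr4a2, an orphan nuclear receptor induced early, was 1.15 and 1.04 higher in sham on its 2 probes and 1.38 and 0.65 higher in TAC. Of 21 measured immediate early genes 3 were past 1.5-fold higher and none lower, and the median was 0.21 in sham and 0.43 in TAC. Fos, the best known member of the list, differed by −0.47 in sham and 0.43 in TAC.

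A few matrix genes were higher in sham at 8 weeks, and most of them had a low signal. Fmod (fibromodulin, which binds collagen fibrils) read −3.64 and −2.02 in sham, 3.07-fold higher at 8 weeks, and −2.66 and −1.58 in TAC. Thbs1 (thrombospondin 1, which activates TGF-β) read −2.47 and −1.33 in sham and −0.49 and 0.68 in TAC. Cilp, a matrix protein of fibroblasts in the loaded heart, was 0.95 higher in sham and 1.17 higher in TAC, and Comp, a matrix protein first known from cartilage, was 0.92 and 1.84 higher.

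In sham at 2 weeks the probes of Fmod, Thbs1 and Cilp were below 0.25 of the 75th percentile, a range in which the spots of a probe differ more among themselves. Mmp14, a membrane-bound collagenase, was 0.81 higher in sham and differed by −0.03 in TAC, with only the sham pool at 2 weeks low. Its level there, −2.24, was also below 0.25 of the 75th percentile. Of 31 measured genes of the matrix and its processing, 5 were past 1.5-fold higher and none lower, with a median of 0.12 in sham and 0.18 in TAC. Of 15 measured collagens, the only one past 1.5-fold was Col14a1, at −0.92 on one probe and 0.17 on the other. The fibroblast markers differed by a median of 0.05 over 17 genes, of which Comp and Wif1 (an inhibitor of Wnt signalling, 0.71 higher) were past 1.5-fold.

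The genes of load itself differed little between the sham pools. Myh7 (the fetal myosin heavy chain) read 6.12 and 6.11 in sham and 8.83 and 9.81 in TAC, and Nppb (the B-type natriuretic peptide) read 5.37 and 5.58 in sham and 6.40 and 7.52 in TAC. The list of hypertrophy and load genes had a median of 0.04 in sham, compared with 0.58 in TAC. Nmrk2, a kinase that makes NAD and that is induced in the stressed heart, was its only member past 1.5-fold in sham, at 2.18 and 1.27, with 3.32 and 3.53 in TAC. No measured gene on the lists used here for the adult sarcomere (19 genes), for calcium handling and ion channels (22), for the ribosome (30), for cholesterol synthesis (19) or for housekeeping (11) was past 1.5-fold. Outside the list of calcium handling, Slc8a3, a sodium-calcium exchanger, read 5.81 and 5.15 in sham on its brighter probe and differed by 0.31 on the other.

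Of the unfolded protein response (19 measured, median 0.11), Herpud1 and Chac1 were 0.69 and 0.75 lower in sham and differed by −0.39 and 0.28 in TAC, and Pdia4, a chaperone of the endoplasmic reticulum, was 0.69 higher in sham. Interferon-stimulated genes are induced by type I interferon in most cell types. In sham 22 of 24 measured members were below 0, with a median of −0.25, compared with −0.00 in TAC. Over all genes the medians were 0.02 and 0.03. Ifit2 (−0.09) and Mx2 (−0.07) lay within the shift of 0.10 that leaving out normalization between arrays gave. The differences were small. Only Cxcl10, a chemokine that draws T cells, was past 1.5-fold, at −1.73 and −2.59 in sham and −1.73 and −1.28 in TAC, and Rsad2, Ifit3 and Gbp2 differed by −0.54, −0.45 and −0.40. The lists with the highest and the lowest medians among the 44 with 5 or more measured genes were at 0.30 (cartilage and bone, 8 genes) and −0.26 (clock repressors and outputs), and 26 of all 49 lists had no gene past 1.5-fold.

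Markers of other cell types differed little as lists. Medians in sham were −0.05 for the endothelium (17 measured), 0.06 for smooth muscle and pericytes (13), 0.02 for macrophages and monocytes (22), −0.08 for B cells (11) and 0.02 for T and NK cells (12). Ccl7, a chemokine that attracts monocytes, was 0.68 higher in sham and 0.74 higher in TAC, and was the only gene past 1.5-fold on the list of macrophage and monocyte markers. The immunoglobulin heavy chain genes Ighg2c and Ighg2b of switched B cells, followed after their values were seen, were higher in both operations. Ighg2c read 0.02 and 0.84 in sham and −0.26 and 0.63 in TAC, and Ighg2b was 0.93 and 1.09 higher. The list of B cell markers did not rise with them. Cd79b differed by −0.50 in sham and −0.48 in TAC, Cd79a by −0.26 and −0.30, and Ighm by −0.08 and −0.56. The members above 0 in sham were Fcer2a (0.21 and 0.01) and Mzb1 (0.28 and −0.12).

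Of the atrial markers, 3 of the 8 measured on both sham arrays were past 1.5-fold higher in sham on the 1 probe used for each gene. Over all genes that share was 1.61%. Dkk3, a secreted protein of atrial muscle, read −1.61 and −0.34 in sham and 0.02 and 0.83 in TAC. Sln, the atrial inhibitor of the calcium pump, was 0.63 higher in sham at a low signal, with −3.69 and −3.06. It was not well above background in TAC at 8 weeks. Kcnj3, a channel subunit of the atrium and the node, was 1.04 higher on a probe that lies beside another called spot and differed by 0.05 on its other probe. The first was used for the list because its mean over the 4 arrays, sham at 8 weeks included, was higher. It read −0.79 and 0.24 in sham, and the other read −0.54 and −0.49. The count of 3 therefore rests in part on that choice of probe. The others differed by less than 1.5-fold, with Nppa at −0.36, Tbx5 at −0.27, Stard10 at −0.05, Kcnj5 at 0.18 and Myl4 at 0.32. Myl7, the atrial myosin light chain, read −4.35 and −2.55 in sham and was well above background only in the later pool, with a lower bound of 2.84-fold for its rise. In TAC it read −3.68 and −5.05 and was well above background only in the earlier pool. How much atrial tissue each pool held was not tested.

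Over all measured probes, 117 were called higher at 8 weeks, which is 0.394% of the 29689, and 102 were called lower, which is 0.344%. They included 65 and 49 of the 14413 measured gene symbols and 34 and 37 of the 5911 measured lincRNA probes. Without normalization between arrays, which shifted every difference by 0.10, the counts were 167 and 87. At 1.5-fold the counts were 516 higher (1.74%) and 536 lower (1.81%). Close to the threshold, 38 called probes and 91 uncalled probes lay within 0.1 of it. Most called probes departed from all 3 other arrays. Of the 117 higher probes, 53 were over 2-fold above every other array on sham at 8 weeks alone and 19 were over 2-fold below every other array on sham at 2 weeks alone. Of the 102 lower probes, 66 were high on sham at 2 weeks alone and 3 were low on sham at 8 weeks alone.

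The largest differences were of this kind. Of the 25 genes with the largest rise, 21 stood over 2-fold apart on 1 sham array alone, led by Klhl1 (a neuronal gene, −3.48 and 0.81 in sham and −3.24 and −3.61 in TAC), Tas2r117 (a bitter taste receptor, 11.2-fold higher) and Sohlh1 (a germ cell factor, 8.19-fold higher). The TAC pair differed by over 1.5-fold the same way for 4 of them, Hspa1a, Fmod, Cd209f (a lectin of tissue macrophages, 2.84-fold higher in sham and 1.92-fold in TAC) and Wwox. Of the 25 genes with the largest fall, 24 stood apart on 1 sham array alone, led by Mycbpap at 0.96 and −2.78 in sham and −3.42 and −2.67 in TAC. The TAC pair went the same way by over 1.5-fold for Pdk4, Mt2, Chst13 and 1700123K08Rik, of which Chst13 and 1700123K08Rik were not well above background in TAC at 8 weeks.

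**Figure D3:**
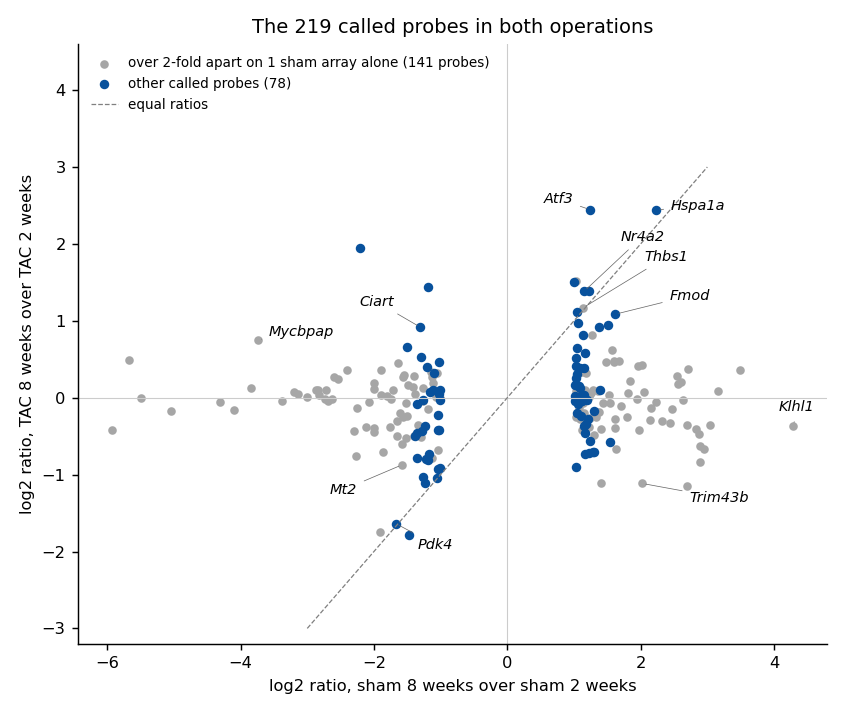
Difference between 8 and 2 weeks in sham (log2, x axis) against that in TAC (log2, y axis) for the 219 called probes, with the 141 that stood over 2-fold apart on 1 sham array alone in grey, the other 78 in blue, and a dashed line where both are equal. The probes with the largest sham differences, such as Klhl1 and Mycbpap, lie near 0 or on the opposite side in TAC, and Pdk4, Hspa1a and Fmod lie near the dashed line.

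Many of these probes lay beside each other on the array. Of the probes called lower, 45 of 102 (44.1%) had another spot called lower within 2 rows and 1 column, compared with 1.63% of the probes that were not called. Of those called higher, 29 of 117 (24.8%) had one, compared with 2.27%. Among the 66 probes high on sham at 2 weeks alone 37 lay beside another, and among the 53 high on sham at 8 weeks alone 22 did. Only 1 of the 12 higher probes and 1 of the 11 lower probes that stood apart on neither sham array alone and differed the same way in TAC by over 1.5-fold did.

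Connected groups of 3 or more spots numbered 6 among the lower probes, with 25 spots in all, and 3 among the higher probes, with 9 spots. The largest held 6 spots in rows 368 to 375 and columns 39 to 40, with probes for Mbnl2 (a splicing regulator of muscle), Dab2ip and Rps6kc1. Others lay in rows 259 to 261 and columns 3 to 4, with Mycbpap, in rows 150 to 152 and columns 83 to 84, with Cxadr (the adhesion protein known as the coxsackievirus receptor) and Armc2, and in rows 365 to 368 of column 75, with Ntpcr. Glp1r (the GLP-1 receptor, 8.03-fold lower) and Khdc4 were in a group in rows 145 to 147 and columns 82 to 84. Among the higher probes, Fzd2 (a Wnt receptor, 2.21-fold higher) was in a group in rows 282 to 286 of column 44. The part of the position on the array in these differences was not tested.

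**Figure D4:**
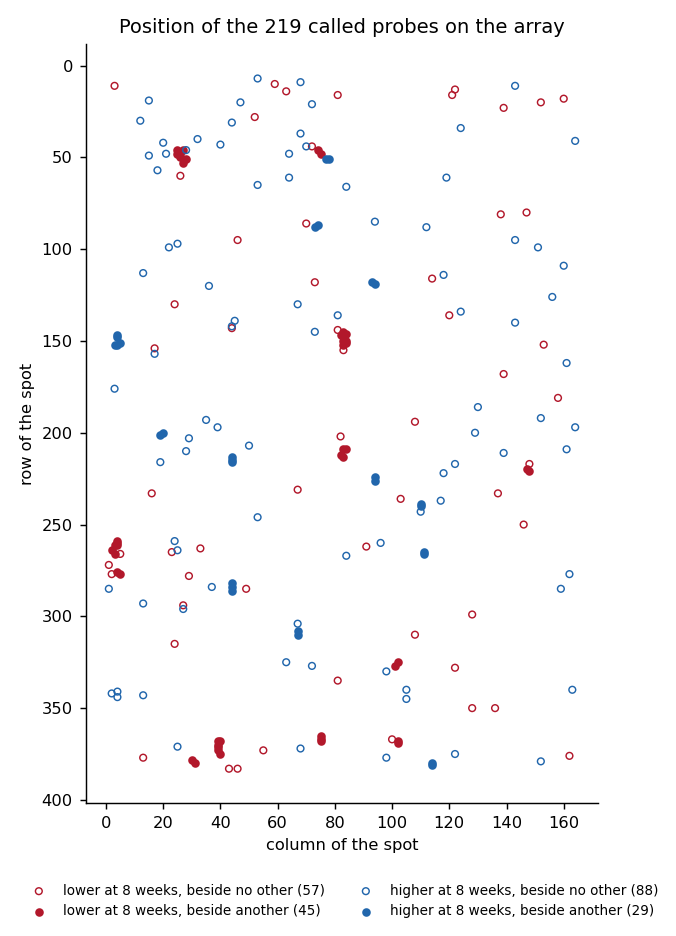
Row (y axis) and column (x axis) of the spots of the 219 probes called higher (blue) or lower (red) at 8 weeks in sham, filled where another spot called the same way lay within 2 rows and 1 column. Filled red spots crowd in a few patches, and open spots are spread over the array.

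Probes that were dim on 1 sham array were counted apart, with the fold as a lower bound against the dim signal itself or the dimmest spot that still passed the background test on that array, whichever was higher. Of 1967 probes well above background on sham at 8 weeks only, the bound exceeded 2-fold for 289 (14.7%), and of 772 on sham at 2 weeks only it exceeded 2-fold for 240 (31.1%). In both sets most lay beside another such or called spot, 191 of 289 and 157 of 240. The share of other probes that lie beside such spots is not given here, so these counts have no background. The genes with the largest bounds were Olfr812 (at least 84.3-fold lower), Olfr508, Gm42743, Sowahb and Ccl26 on one side and Olfr1019 (at least 14.7-fold higher), Asb16, Six2, Speer4e and 2310026L22Rik on the other, and all 10 lay beside another such spot. Olfr812, an olfactory receptor, was near the lower end of the scale on the other 3 arrays, at −6.36, −6.16 and −6.37.

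Probes spotted 10 times show how far single spots can be read. Of 267 such probes measured on both sham arrays, 0 were called and 3 were past 1.5-fold, Tfrc (0.82), Kcnn2 (0.62) and Gpr65 (−0.69). Over all measured probes 0.738% were called either way, and 1.74% were past 1.5-fold higher and 1.81% lower. At so low a share, 0 of 267 says little about single spots. Copies of a probe on the same array differed, pair by pair, with an SD of 0.16 (log2), which was 0.30 for probes below 0.25 of the 75th percentile and 0.12 for the brighter ones. With spots flagged as outliers kept, 6 of 2670 single-spot differences between the sham arrays (0.225%) departed from the median of their probe by over 2-fold, and 5 of these 6 spots carried the flag. The flag of a spot as an outlier among its copies cannot act on a probe with 1 spot.

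Genes with several probes give a second reading of the same RNA. Of 3810 genes with 2 or more measured probes, 46 had a called probe, and in 42 of them another probe was within 1.5-fold or on the other side. Khdc4 was 7.06-fold lower on a probe in a group of neighbouring spots and 0.28 higher on its other probe. Mbnl2 was 1.11 lower on one probe and 0.08 and 0.27 higher on the others, Cxadr was 2.87 lower and 0.06 higher, and Rheb, the activator of mTORC1, was 1.37 and 0.18 higher. In 4 genes with a called probe, every measured probe was past 1.5-fold the same way, namely Ucp3, Nr4a2, the predicted gene Gm10800 and Tesmin, a testis gene that was lower on both probes, by 2.25-fold on the dimmer one.

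Over all genes with several probes, every probe was past 1.5-fold for 5 genes higher and 7 lower at 8 weeks. Tfrc, the transferrin receptor that takes iron into the cell, was 0.82, 0.82 and 0.71 higher on its 3 probes in sham and differed by 0.17, −0.01 and −0.14 in TAC. Its brightest probe read 0.69 and 1.51 in sham and 1.59 and 1.76 in TAC, so only sham at 2 weeks was low. Arrdc2, an arrestin-like gene, was 0.72 and 0.69 lower in sham and 0.45 and 0.43 lower in TAC. Foxo4 and Cecr2 were the others lower on every probe, beside Dbp, Ppargc1a, Ucp3, Arrdc2 and Tesmin, and Pla2g2d, a secreted phospholipase of lymphoid tissue, was the other higher, beside Bdh1, Tfrc, Nr4a2 and Gm10800.

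**Figure D5:**
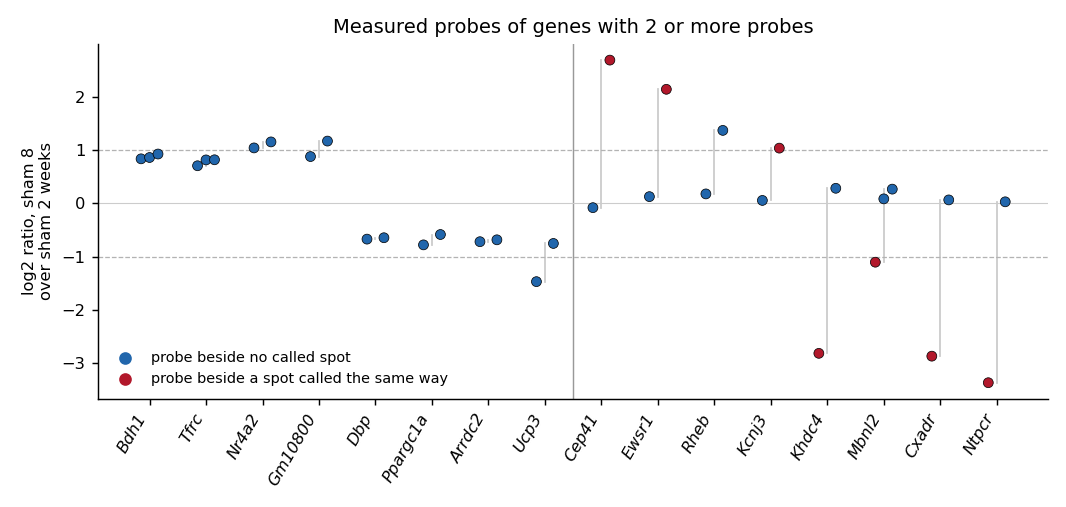
Difference between sham at 8 and 2 weeks (log2, y axis) for each measured probe (point) of 16 genes with 2 or more, with 8 genes whose probes lie together on the left and 8 genes with a called probe that the other probes do not follow on the right. For 7 of the 8 genes on the right the called probe lies beside another spot called the same way (red).

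A difference in both operations rests on 4 arrays and not on 2. Of the 516 probes past 1.5-fold higher in sham, 81 (15.7%) were past 1.5-fold higher in TAC and 36 (6.98%) were past 1.5-fold lower. Over all measured probes 2.63% were past 1.5-fold higher and 4.33% lower in TAC. Of the 536 probes past 1.5-fold lower in sham, 123 (22.9%) were past 1.5-fold lower in TAC and 16 (2.99%) higher. Without normalization between arrays the shared probes were 260 higher and 38 lower, in place of 81 and 123. Of the 81 and 123 probes, 34 and 31 were at or above 0.25 of the 75th percentile on all 4 arrays.

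Beside the genes above, those followed after their values were seen include Sik1, a kinase induced by cAMP (0.97 higher in sham and 0.79 in TAC), Siah2, a ubiquitin ligase of the hypoxia response (0.94 and 0.90), Pdgfc, a growth factor for fibroblasts (1.13 and 0.81), and Abat, the enzyme that breaks down GABA (0.66 and 1.26). Lower in both were Hpgd, which breaks down prostaglandins (−0.81 in both operations on its brighter probe), Lpar4, a receptor for lysophosphatidic acid (−0.81 and −1.49), and Hsd17b11 on its brighter probe (−0.80 and −0.65). The other probe of Hsd17b11 was well above background in sham at 8 weeks alone, at least 2.44-fold higher. The sham and TAC pools of a time shared that time of sampling, and nothing in the labels says whether they were also prepared together.

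Among lincRNA regions, with coordinates of mm9 as the array gives them, 63 of 2923 with a measured probe had a called probe. Over all measured probes 0.738% were called either way, but a region counts through any of its probes, so the measures are not alike. Of the 63 regions, 38 had 2 or more measured probes. In 5 regions 2 or more probes were called the same way. At chr11:112905201-113062945, on the strand marked R, all 3 probes were 1.19 to 1.35 lower in sham, and they differed by −0.81 to −0.78 in TAC. An overlapping region of the design on the same strand, chr11:112898724-113062945, had 7 measured probes at −0.86 to 0.04 in sham, of which 2 were past 1.5-fold lower and none was called. At chr6:31115515-31168433, on the strand marked R, the 3 probes were 0.59 to 0.82 lower in sham, from levels of 1.85 to 3.07 at 2 weeks, and differed by −0.13 to 0.05 in TAC.

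On chromosome 5, neighbouring regions were low on sham at 2 weeks alone. The 3 measured probes at chr5:15146475-15170100, on the strand marked F, read −2.53 to −2.16 in sham at 2 weeks, 0.29 to 0.38 in sham at 8 weeks, −0.31 to 0.03 in TAC at 2 weeks and −0.81 to −0.43 in TAC at 8 weeks. The 2 probes at chr5:14943275-14944205, also marked F, were 2.90 and 2.95 higher in sham and differed by −0.67 and −0.63 in TAC. The predicted genes Gm10800 and Gm10718 were also lowest on sham at 2 weeks, with Gm10718 at 0.69 in sham at 2 weeks and between 1.70 and 1.91 on the other 3 arrays, and Gm10800 at 0.92 and between 2.05 and 2.09 on one of its probes.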

How the data were processed

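The authors deposited the scanner output of 4 Cy3 arrays (SurePrint G3 Mouse, probe names on mm9), 1 pool of RNA for each condition. Per the file headers, Feature Extraction 10.7.3.1 made the files, whereas the submitters' processing notes name version 9.1. The processed signal is an intensity for each spot, corrected for background and not normalized between arrays, and the deposited value table repeats that intensity after multiplication by a constant for each array. Here outlier-flagged spots were left out, the spots of a probe were averaged as log2, and the array's 75th percentile over probes was subtracted. A list used 1 probe for each gene, the one with the highest mean level. All 4 arrays lay on the same slide and scan, which could not be tested as batches. The number of arrays, 1 for each condition, limits the precision, and no test was run. Genes were named by a rule: the 25 largest rises and falls among called probes, the 5 largest lincRNA regions each way, the clock genes, the 3 largest of each list, the 5 largest bounds each way and the members of neighbouring groups. Genes outside it, such as those with several probes or shared with TAC, were chosen after their values were seen. The comparison, lists and rules were chosen with earlier results of these data known. The counting was tested on simulated data. The alternatives were other normalizations, normexp by the limma package (version 3.58.1, R 4.3.3), values of the deposited table, other filters, folds and neighbour distances. Python 3.11.15, pandas 2.3.3, numpy 2.4.6 and matplotlib 3.10.9 were used. A few genes selected by the rule are not reported here.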

Additional observations from a re-analysis of the deposited data

Results flagged for a closer look

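Among the genes and regions followed by name, the sham pair and the TAC pair differed by over 1.5-fold in opposite directions for 6, out of the 36 and 16 measured probes given above, and the difference between the operations was not tested. Ciart differed by −1.30 in sham and 0.92 in TAC, with sham at 2 weeks the highest of the 4 arrays. Sln differed by 0.63 in sham and −1.39 in TAC, at levels of −3.06 or below on all 4 arrays and not well above background in TAC at 8 weeks. Mycbpap differed by −3.74 in sham and 0.75 in TAC, and its spot lies in a group of neighbouring spots called lower. Trim43b differed by 2.03 in sham and −1.12 in TAC, and lies beside another spot called higher. Of the lincRNA regions, chr5:15146475-15170100_F differed by 2.89 in sham and −0.84 in TAC on one probe, and chr5:14943275-14944205_F by 2.95 and −0.67, both low on sham at 2 weeks alone.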

How the results depend on the processing

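No paired analysis was possible because each condition has 1 array. No named gene past 2-fold changed sign under any alternative run. Small values did, since 28 of 49 list medians, all of a size of 0.101 or less, and 25 of 334 named genes changed sign under at least 1 alternative, 17 and 16 of them without normalization, and the named genes were of a size of 0.408 or less. Of the counts 20 moved by over 1.5 times and 32 did not, 1 value of a list median moved by more than the spot spread and 538 did not, and of the named genes 155 values moved, all under normexp, and 2183 did not. The main counts, 117 higher and 102 lower, became 28 and 33 under normexp, 516 and 536 at 1.5-fold, 40 and 45 at 3-fold, and 832 and 475 when either sham array above background sufficed. The lower count became 65 among probes above the array median on both sham arrays and 57 without those beside another called the same way. Without the probes that stood apart on 1 sham array alone, an alternative chosen after seeing the data, they became 45 and 33. The probes past 1.5-fold in both pairs, 81 higher and 123 lower, became 260 and 38 without normalization, 22 and 10 under normexp, 244 and 273 when either sham array above background sufficed, and 67 lower above the array median, alternatives also chosen after seeing the data. Without normalization the called probes were 167 higher and 87 lower, and each sham difference shifted by 0.10. The number of lower probes beside another became 28 within 1 row and 1 column. Low signal limits what can be read, since spots of dim probes differ more, and no setting replaces the missing replicates.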
